A study of Mus musculus with 68 samples.

Results

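The genes of cholesterol synthesis, uptake and control were followed through the zones of the mouse growth plate. A list of 28 genes chosen by name was looked up among the 23420 gene rows of the count table, and all 28 were found, Msmo1 under its older symbol Sc4mol. The study cut resting, proliferative and hypertrophic cartilage out of stained frozen bone sections by laser capture and sequenced the lysates with SMART-seq2, a full-length polyadenylated RNA protocol that does not mark strand. The mice were of mixed background, and the labels name no mutant allele, transgene, drug or sex. The groups were ethanol-fixed sections at postnatal day 2 (P2) and day 28 (P28), xylene-fixed sections at P28, and 1 ethanol-fixed animal at day 3 (P3). In all, 68 libraries were deposited, of which 51 were ethanol-fixed P2 or P28 libraries, 14 were xylene-fixed and 3 were from P3. Libraries of the same animal and zone were summed, and the animals are called P2-A to P2-G, P28-A to P28-E and P3-A here. The animals of P2-D and P28-B have plural labels and may each be a pool. After libraries under 100000 counts were set aside, 26 libraries in 21 animal-zone sums were tested, with 4 sums in each zone at P2 and 3 in each zone at P28. P2-C, P2-E and P2-F kept 1 zone each. With the animal as a block in the fit, the fitted zone differences at P2 therefore rest on P2-A, P2-D and P2-G, while levels are given for all sums.

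Cells obtain cholesterol by building it from acetyl-CoA through mevalonate, squalene and lanosterol, or by taking up lipoproteins. When sterol in the endoplasmic reticulum is low, the escort protein Scap carries the SREBP transcription factors (genes Srebf1 and Srebf2) to the Golgi for cleavage, and the released factors switch on most enzymes of the pathway, while Insig1 and Insig2 hold Scap back when sterol is plentiful. In cartilage, cholesterol is known as the molecule that is attached to hedgehog proteins, and inherited defects of late sterol enzymes such as Ebp and Nsdhl cause skeletal dysplasias.

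The zone labels were checked against marker genes. The summed level of 8 prehypertrophic and hypertrophic markers, as CPM (counts scaled to 1000000 per library after TMM normalization, used for all levels here), was 7344 to 80259 in the hypertrophic sums at P2 and 49.3 to 444 in the resting sums. At P28 it was 74206 to 121319 in the hypertrophic sums and 932 to 10124 in the resting sums. The value of 10124 belonged to the resting sum of P28-A and was above that animal's own proliferative sum, at 7632. The 7 cartilage markers together stood at 9202 CPM or more in every tested sum. Of the markers of other cells, the summed perichondrium and fibroblast markers were 660 to 5882 CPM in the P2 resting sums against 103 to 441 in the P2 proliferative sums, and 140 to 564 against 507 to 870 at P28. Red blood cell markers reached 1558 CPM in the resting sum of P28-D. That value is an upper limit, since the row Beta-s was added both under its own symbol and as Hbb-bs. The 5 fat cell markers were at 0 in every tested sum except the proliferative sum of P28-D, at 2.499. Osteoblast markers, at 856 CPM, and white blood cell and macrophage markers, at 232 CPM, were highest in the hypertrophic sum of P28-B. In the xylene-fixed sections, the hypertrophic sum of P28-D held 62011 CPM of perichondrium and fibroblast markers, against 498 in that of P28-E.

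The number of the genes seen differed widely between sums. Across the 21 tested sums, total counts ran from 108601 to 3347722, and the ribosomal RNA precursor Rn45s took 8.51% to 80.98% of them. The 3 resting sums at P28 were shallow, with 108601, 135624 and 260199 counts. Their counts from the 28 genes were 63 in P28-A, 91 in P28-B and 341 in P28-D, and 12, 17 and 6 of the genes had any count, so the deepest of the 3 held the fewest genes. The proliferative sums of these animals held a count for 27, 28 and 19 of the genes. The xylene-fixed sums were deeper, at 631447 to 7401383 counts, and held 25 to 27 of the genes in every zone. Of the 28 genes, 25 passed the low-count filter of the zone fit. Idi1, the isomerase that makes dimethylallyl diphosphate, had 4 counts over all tested sums, Tm7sf2 had 79 and Fdft1 had 217, and these were not tested between zones. Fewer cells of a type and less RNA per cell cannot be told apart in such libraries.

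**Figure D1:**
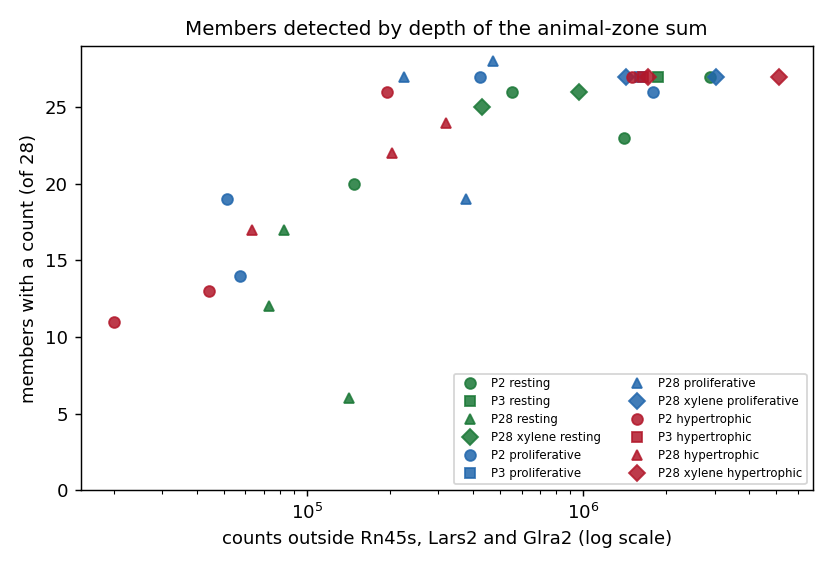
Number of the 28 genes with at least 1 count (y axis) against counts outside Rn45s, Lars2 and Glra2 (x axis, log scale), 1 point per animal-zone sum, coloured by zone and shaped by age and fixation. The P28 ethanol resting sums hold 6 to 17 of the genes, and the xylene resting sums 25 and 26.

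At P28 Sqle was lower in the resting zone than in both other zones, and Msmo1 and Lbr were lower and Srebf1 higher than in the hypertrophic zone, in the ethanol-fixed sections. In the comparison with the proliferative zone, 1 of the 25 genes tested passed edgeR's quasi-likelihood test with Benjamini-Hochberg adjustment over 6958 genes, Sqle, which was lower. Of all genes tested, 0.561% passed there. In the comparison with the hypertrophic zone, 4 of 25 passed: Sqle, Msmo1 and Lbr were lower in the resting zone and Srebf1 was higher. Of all genes tested, 1.77% passed there. Both comparisons use the same 3 shallow resting sums, so they are not independent of each other. Several animal labels share a number (P28-C, P28-D and P28-E, and P2-F and P3-A), and whether such animals were of 1 litter is not stated. The p-values set each difference against a spread between sums that was largely shared across genes and both ages in the fit. They say little about how these 3 resting sums varied for a single gene.

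Fitted differences of the members lay mostly on one side. Against the proliferative zone, 23 of the 25 fitted log2 differences were negative, with a median of -2.16, while 66.3% of all 6958 genes were negative, with a median of -0.81. Against the hypertrophic zone, 22 of 25 were negative, with a median of -2.25, while 55.1% of all genes were negative, with a median of -0.27. Ggps1, which had no count in either of these zones, is among the 22. In each of these comparisons 6 of the 25 fitted members had 0 counts in the resting sums, against 9.53% of all fitted genes. The fitted values of such genes depend on a prior count. With those genes set at the fold that 3 counts over the group would give, the median was -1.996 against -0.65 for all genes in the first comparison, and -1.55 against -0.11 in the second. Unadjusted p-values were under 0.05 for 9 of 25 members in each comparison, against 10.5% and 13.7% of all genes. Scaling moved these values: with RLE in place of TMM, the median of all genes was -0.24 and 0.12, that of the members -1.59 and -1.66, and Sqle and Lbr did not pass. The calls over all genes split into 10 higher and 29 lower with TMM against 12 and 6 with RLE in the first comparison, and into 38 and 85 against 54 and 47 in the second.

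**Figure D2:**
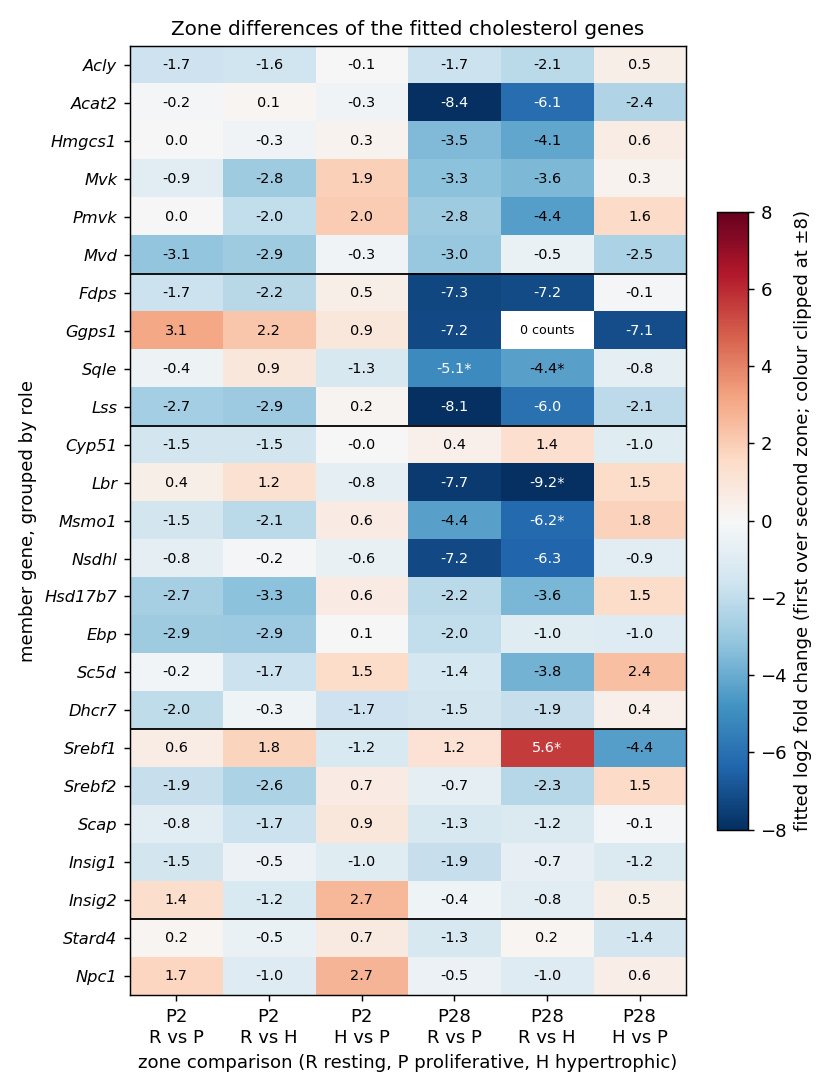
Fitted log2 fold change of the 25 tested genes (rows, grouped by role from acetyl-CoA supply at the top to transport at the bottom) in the 6 zone comparisons (columns); an asterisk marks an adjusted p under 0.05, and "0 counts" a gene without counts in both zones. The asterisks stand in the P28 columns against the resting zone: Sqle in both, and Lbr, Msmo1 and Srebf1 against the hypertrophic zone.

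Sqle encodes squalene epoxidase, the first oxygen-requiring step and a rate-limiting enzyme of sterol synthesis, and lies at chr15:59315077-59331192 on the plus strand of GRCm38, with no exon shared with another gene in GENCODE vM21. In P28-A its level was 0 CPM in the resting zone, 95.8 in the proliferative zone and 71.8 in the hypertrophic zone. In P28-B the 3 levels were 16.9, 98.8 and 157 CPM, and in P28-D they were 0, 247 and 57.9 CPM. The resting sums were below all proliferative and hypertrophic sums, with no overlap, and held 3 Sqle counts in all, against 218 and 76. The pooled rate in the resting zone was 0.0379 of the proliferative rate, with an exact 95% interval of 0.00776 to 0.112 for counting error only. It was 0.0855 of it without P28-D. The fitted log2 fold change was -5.12 ± 1.29 (SE) against the proliferative zone, with an adjusted p of 0.0233. Against the hypertrophic zone it was -4.37 ± 1.25, with an adjusted p of 0.0327. Leaving out any of the P28 animals, or P2-D, ended both calls, and leaving out P2-G ended the second (adjusted p = 0.0528). All 3 resting counts were in P28-B, and without that animal Sqle was at least 22.8-fold lower than in the proliferative zone at a floor of 3 counts over the group (adjusted p = 0.0601) and at least 8.42-fold lower than in the hypertrophic zone (adjusted p = 0.0886). Without P28-D the same difference was -3.80, with an adjusted p of 0.308. Without the animal block in the fit it was -4.71, with an adjusted p of 0.172, and the difference from the hypertrophic zone was -4.16, with an adjusted p of 0.122.

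The xylene-fixed sections gave a separate view of Sqle at greater depth. In animal P28-D the xylene-fixed levels were 53.7 CPM in the resting zone, 174 in the proliferative zone and 114 in the hypertrophic zone. In P28-E they were 8.95, 242 and 154 CPM. The resting level was thus the lowest of the 3 in both animals, as in the ethanol-fixed sections, although P28-D contributed to both fixations. With the xylene-fixed sums added to the fit as blocks of their own, the log2 fold change from the proliferative zone was -3.94, with an adjusted p of 0.00421, and it was -3.24 from the hypertrophic zone, with an adjusted p of 0.0126. P28-D entered that fit as separate ethanol-fixed and xylene-fixed blocks, although it is the same animal. The adjusted p-values of that fit, here and for the genes below, may therefore be too small.

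Msmo1, the sterol methyl oxidase that removes the methyl groups at carbon C4 of lanosterol-derived sterols, is at chr8:64718139-64733792 on the minus strand. Its resting levels at P28 were 0, 11.3 and 0 CPM in P28-A, P28-B and P28-D. The hypertrophic levels of the same animals were 47.9, 164 and 317 CPM, all above the resting levels. The proliferative levels were 59.5, 151 and 0 CPM, so that P28-D had no Msmo1 count in either zone. Msmo1 was lower in the resting than in the hypertrophic zone by a fitted log2 fold change of -6.19 ± 1.56 (adjusted p = 0.00934), and the difference from the proliferative zone, -4.35 ± 1.49, did not pass (adjusted p = 0.201). The pooled resting rate was 0.0156 of the hypertrophic rate, with an exact interval of 0.00188 to 0.0574, and 0.0427 of it without P28-D. In the xylene-fixed sections the levels in resting, proliferative and hypertrophic zone were 60.3, 148 and 175 CPM in P28-D, and 7.67, 282 and 220 CPM in P28-E, again lowest in the resting zone. With these sums in the fit the difference from the hypertrophic zone was -4.33, with an adjusted p of 0.00489. Without P28-D it was -4.30 in the ethanol-fixed sections and did not pass (adjusted p = 0.223), and without P28-B, which held both resting counts, Msmo1 was at least 34.0-fold lower (adjusted p = 0.0514). Without the animal block it was -5.59 (adjusted p = 0.0698). The xylene-fixed hypertrophic sum of P28-E, in which Msmo1 was also above the resting sum, held 498 CPM of perichondrium and fibroblast markers.

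Lbr encodes the lamin B receptor, a nuclear envelope protein that is also a sterol C14 reductase, and lies at chr1:181815335-181843046 on the minus strand, where 9.2% of its exonic bases overlap Dnah14 on the other strand. The 3 ethanol-fixed resting sums at P28 held 0 Lbr counts. Its proliferative levels in P28-A, P28-B and P28-D were 25.9, 33.7 and 15.0 CPM, and its hypertrophic levels were 39.9, 266 and 22.1 CPM. At the floor of 3 counts over the group, Lbr was at least 23.0-fold lower in the resting than in the hypertrophic zone and at least 5.32-fold lower than in the proliferative zone. P28-B held 78 of the 91 hypertrophic counts, and without it these bounds were 3.65-fold and 2.68-fold. The hypertrophic sum of P28-B also held 232 CPM of white blood cell and macrophage markers, against 0 in those of P28-A and P28-D. The part of such cells in its Lbr level was not tested. The fitted difference passed against the hypertrophic zone (adjusted p = 0.0255) and missed the threshold against the proliferative zone (adjusted p = 0.222). The first call was lost without P2-D (adjusted p = 0.0694), P28-A (0.127) or P28-B (0.390). The xylene-fixed resting sums did not show this: they held 123 Lbr counts in P28-D and 49 in P28-E. Their resting, proliferative and hypertrophic levels were 68.1, 65.03 and 56.99 CPM in P28-D and 62.6, 46.3 and 110 CPM in P28-E. The resting level was the highest of the 3 in P28-D and the middle one in P28-E. With these sums in the fit, the difference from the hypertrophic zone was -2.44, with an adjusted p of 0.226.

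Srebf1, the SREBP gene better known for fatty acid synthesis genes, went the other way. It lies at chr11:60199089-60222581 on the minus strand. Its resting levels at P28 were 121, 84.6 and 1226 CPM in P28-A, P28-B and P28-D, and the proliferative levels were 77.7, 43.4 and 387 CPM. The hypertrophic levels were 0, 10.2 and 2.76 CPM, below every resting and proliferative level. Srebf1 was higher in the resting than in the hypertrophic zone by a log2 fold change of 5.58 ± 1.36 (adjusted p = 0.00639), and the difference from the proliferative zone, 1.16 ± 0.98, did not pass (adjusted p = 0.703). The resting sum of P28-D held 280 of the 315 Srebf1 counts of the resting zone, and 280 of that sum's own 341 counts from the 28 genes. Without that sum Srebf1 still passed against the hypertrophic zone (adjusted p = 0.0437), whereas without all sums of P28-D the difference was 3.91 (adjusted p = 0.303), and without P28-A it was 5.31 (adjusted p = 0.101). In the xylene-fixed sections the resting, proliferative and hypertrophic levels were 258, 154 and 30.6 CPM in P28-D, and 219, 72.0 and 67.6 CPM in P28-E. The level of Srebf1 was thus highest in the resting and lowest in the hypertrophic zone in both xylene-fixed and in all 3 ethanol-fixed sets of sections. With the xylene-fixed sums in the fit the difference was 3.48 on the log2 scale (adjusted p = 0.00786).

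**Figure D3:**
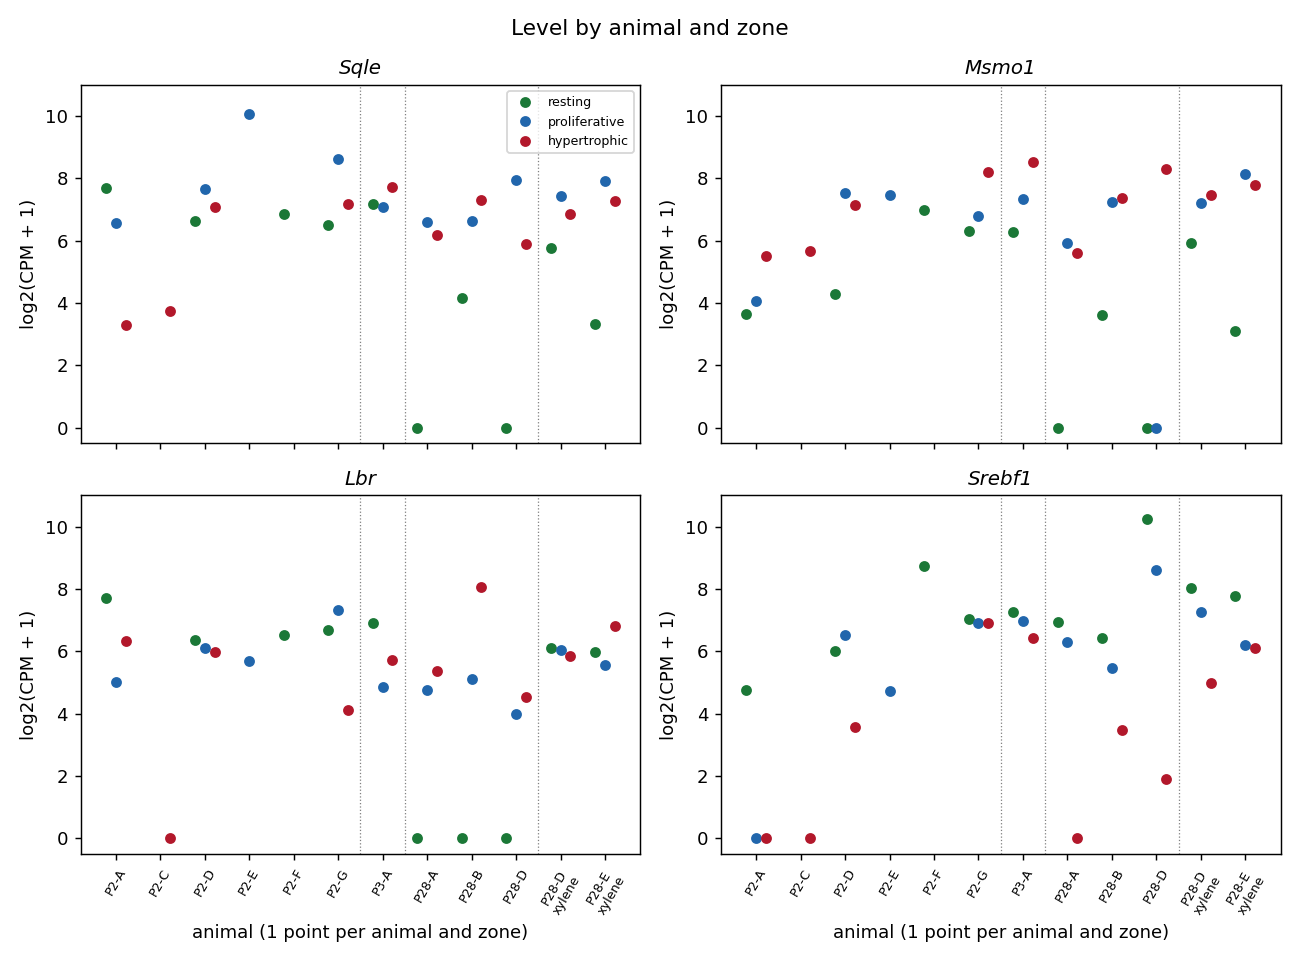
Level of Sqle, Msmo1, Lbr and Srebf1 (log2 of CPM plus 1, y axes) in each animal (x axis), 1 point per animal and zone, with dotted lines between P2, P3, ethanol-fixed P28 and xylene-fixed P28. Resting points of Sqle lie lowest in every P28 set, those of Srebf1 highest, and those of Lbr are at 0 in the P28 ethanol-fixed sections only.

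The promoters of the members are shown because the pathway is a textbook case of joint control. RefSeq windows on GRCm38.p6 were found for 23 of the 28 genes, 31 windows in all, and the 250 bases before each transcription start were searched on both strands. Fdft1, Fdps, Npc1, Sqle and Stard4 had no entry in the table. The sterol response element core TCACNCCAC, to which SREBP proteins bind, was found in 1 member gene, Hmgcs1, and in 1.22% of the 27025 genes with a window. The CCAAT box, a site of the partner factor NF-Y, was found in 20 of 23 member genes and in 37.5% of all genes. The E-box CACGTG was found in 5 of 23 and in 6.86%. A match is a description of the letters only. Stretches of 30 bases, 5′ to 3′ on the strand of the gene with the match in capitals (ATTGG is CCAAT on the other strand), are given for Hmgcs1 with its sterol element and for the members that differed at P28, with the late enzyme Sc5d for its E-box.
Hmgcs1, chr13:119690203-119690232, plus strand: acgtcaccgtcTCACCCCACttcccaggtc
Hmgcs1, chr13:119690293-119690322, plus strand: gtccccgcctctcATTGGctgaaagcggat
Msmo1, chr8:64733617-64733646, minus strand: ggagtggggcggaCCAATtacgacaggcga
Lbr, chr1:181842453-181842482, minus strand: cactggccctcgaCCAATcgccagcgccgg
Srebf1, chr11:60222731-60222760, minus strand: actgcgactgtctCCAATgcaagacaacct
Srebf1, later start, chr11:60210485-60210514, minus strand: ggcgcggctgctgATTGGccatgtgcgctc
Sc5d, chr9:42264381-42264410, minus strand: ctacgcggcgacCACGTGaccgccgcgacc
The Hmgcs1 matches begin 137 and 45 bases before the start, and the Sc5d match begins 98 bases before it. The Msmo1 stretch overlaps an exon of Msmo1 in GENCODE vM21, whereas the other stretches overlap no exon of their own gene there.

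Among the enzymes of acetyl-CoA supply and the mevalonate pathway, none passed at P28, and all 6 tested had negative fitted differences of the resting zone from both other zones. Hmgcs1, the cytosolic HMG-CoA synthase, had resting levels of 0, 33.9 and 0 CPM in P28-A, P28-B and P28-D. Its proliferative levels were 135, 129 and 7.50 CPM, and its hypertrophic levels 23.9, 123 and 168 CPM. The differences of -3.52 ± 1.41 and -4.14 ± 1.47 did not pass (adjusted p = 0.319 and 0.135). In the xylene-fixed sections the resting level was again lowest, 31.5 against 87.3 and 92.7 CPM in P28-D and 24.3 against 105 and 159 CPM in P28-E. Acly, the ATP citrate lyase that supplies acetyl-CoA, was at 60.3, 22.6 and 0 CPM in the resting sums and at 19.99 to 111 CPM in the proliferative sums. Mvd, the mevalonate diphosphate decarboxylase, was at 0, 11.3 and 0 CPM against 38.8, 6.02 and 27.5 CPM, and its groups overlapped. Mvk, the mevalonate kinase, had 1 count in all resting sums together. Its xylene-fixed levels went the other way against the proliferative zone, at 14.4 against 11.2 CPM in P28-D and 53.7 against 4.05 CPM in P28-E, and were below the hypertrophic levels of 32.7 and 113 CPM.

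Of the enzymes from prenyl diphosphates to lanosterol, 3 of the 4 tested had no count in the P28 resting sums, and the other was Sqle. Of all fitted genes, 9.53% had no count there. Lss, the lanosterol synthase, was at least 8.11-fold lower than in the proliferative zone at the floor of 3 counts, with an adjusted p of 0.258 in the fit, and the bound was 4.27-fold without P28-A and 4.86-fold without P28-B. Its proliferative levels were 75.1, 45.8 and 0 CPM in P28-A, P28-B and P28-D. The deeper xylene-fixed sections did not repeat this order for Lss, with 29.9 CPM in the resting against 3.21 in the proliferative zone of P28-D, and 5.11 against 8.10 CPM in P28-E. Fdps, the farnesyl diphosphate synthase, was at least 4.72-fold lower and Ggps1, the geranylgeranyl diphosphate synthase, at least 4.36-fold lower on the same basis, and neither passed. Leaving out 1 animal brought the bound of Fdps down to 2.18-fold (without P28-B) and that of Ggps1 to 2.81-fold (without P28-A) or 2.85-fold (without P28-B). The xylene-fixed resting and proliferative levels of Fdps were 6.64 and 16.6 CPM in P28-D, and 19.2 and 16.6 CPM in P28-E. For Ggps1 they were 1.11 and 35.2 CPM in P28-D, and 17.9 and 12.1 CPM in P28-E. Both genes thus kept the order in P28-D and reversed it in P28-E. Of the exonic bases of Fdps, 26.7% overlap the gene Gm43738, and the counts of these genes may have been split.

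From lanosterol to cholesterol, 7 of the 8 tested enzymes had negative fitted differences of the resting from the proliferative zone at P28, and Cyp51, the lanosterol demethylase, was the exception at 0.38 ± 1.35. Sc5d, the lathosterol oxidase, had resting levels of 36.2, 22.6 and 8.75 CPM in P28-A, P28-B and P28-D against hypertrophic levels of 224, 191 and 254 CPM. The groups did not overlap, and the difference of -3.80 ± 1.26 missed the threshold (adjusted p = 0.0913). With DESeq2, and with the xylene-fixed sums in the edgeR fit, Sc5d passed. Its xylene-fixed resting levels were 67.5 and 23.0 CPM, against 140 and 206 CPM in the hypertrophic zone. Ebp, the sterol isomerase, was lower in the resting zone than in both other zones of all 5 sets of P28 sections, with resting levels of 12.1, 5.64 and 0 CPM in the ethanol-fixed sums. Dhcr7, Hsd17b7 and Nsdhl held 4, 4 and 0 counts in the 3 resting sums, against 44, 55 and 21 in the proliferative sums, and did not pass. For Hsd17b7 the xylene-fixed resting level was the highest of the 3 zones, 68.05 against 52.7 and 27.7 CPM in P28-D and 34.5 against 15.7 and 6.20 CPM in P28-E.

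The control and transport genes other than Srebf1 did not pass in any P28 zone comparison. Srebf2, the SREBP gene better known for sterol synthesis, was at 6.03, 0 and 78.8 CPM in the resting sums of P28-A, P28-B and P28-D and at 0, 37.5 and 267 CPM in the hypertrophic sums. In the xylene-fixed sections the resting level of Srebf2 was the highest, 86.3 against 43.1 in the proliferative and 63.7 CPM in the hypertrophic zone of P28-D, and 97.2 against 76.5 and 69.3 CPM in P28-E. Insig1, which is itself induced by SREBP, was at 18.1, 28.2 and 26.3 CPM in the resting sums and at 56.96, 48.2 and 165 CPM in the proliferative sums, without overlap, and its difference of -1.85 ± 1.33 did not pass (adjusted p = 0.639). Insig2 stood at 0, 95.9 and 0 CPM in the resting sums. Npc1, which moves cholesterol out of lysosomes, was at 24.1, 22.6 and 0 CPM in the resting and 23.3, 22.9 and 17.5 CPM in the proliferative sums. Stard4, a cytosolic sterol carrier, differed by -1.28 ± 1.65 and Scap by -1.29 ± 1.74 between these zones.

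Direction was then counted over the 5 sets of P28 sections, 3 ethanol-fixed and 2 xylene-fixed, with P28-D in both. Ebp, Hmgcs1, Insig1, Nsdhl and Sqle were lower in the resting than in the proliferative zone in all 5 sets, which is 5 of 25 members, against 10.3% of all 6958 genes. Ebp, Fdps, Hmgcs1, Msmo1, Sc5d and Sqle were lower in the resting than in the hypertrophic zone in all 5, which is 6 of 25, against 7.59% of all genes. Some of these directions rest on very few counts, as for Ebp, with 3 resting and 5 hypertrophic counts in the ethanol-fixed sections. Srebf1 was higher in the resting zone in all 5 sets in both comparisons, against 2.43% and 3.79% of all genes. The median difference of the members within a set, on the log2(CPM + 1) scale, was -3.80, -2.29 and -1.81 between resting and proliferative zone in the ethanol-fixed sections of P28-A, P28-B and P28-D, and -0.40 and -1.37 in the xylene-fixed sections of P28-D and P28-E. The medians of all genes in these sets were -0.65, -0.66, -0.88, 0 and -0.12. The member medians were smaller in size in the deeper xylene-fixed sections, but so were the medians of all genes. Set against all genes, the xylene-fixed P28-E (-1.37 against -0.12) was not smaller than the ethanol-fixed P28-D (-1.81 against -0.88). Within P28-D, however, the xylene-fixed median (-0.40 against 0) lay closer to that of all genes than the ethanol-fixed one. The ethanol-fixed medians of P28-A and P28-B lay further from those of all genes than either xylene-fixed median. The part of depth in this was not tested.

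The summed level of the 28 genes gave a coarser view. At P28 it was 795 ± 608 CPM (SD, n = 3) in the resting zone, 1322 ± 26.3 in the proliferative zone and 1317 ± 515 in the hypertrophic zone, and the zones overlapped. Of the 1493 CPM in the resting sum of P28-D, 1226 were Srebf1. In P28-A the resting sum was 380 CPM against 1313 in the proliferative zone, and in P28-B it was 513 against 1352. In P28-D it was 1493 against 1302. The xylene-fixed sums were 1125 against 1573 CPM in P28-D and 891 against 1990 CPM in P28-E. Hypertrophic sums lay on both sides of the proliferative sums, with 726, 1558 and 1668 CPM in the ethanol-fixed sections.

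**Figure D4:**
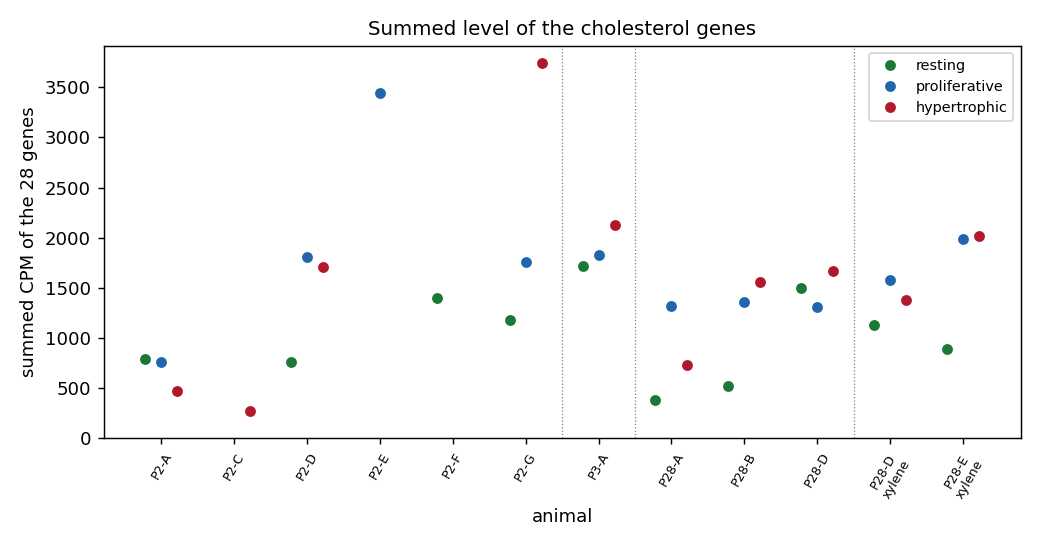
Summed CPM of the 28 genes (y axis) in each animal (x axis), 1 point per animal and zone, with dotted lines between P2, P3, ethanol-fixed P28 and xylene-fixed P28. The resting point is below the proliferative point in every animal with both except P2-A and the ethanol-fixed sections of P28-D.

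At P2 none of the 25 genes passed in any zone comparison by edgeR, none had an unadjusted p under 0.05, and DESeq2 called none. Of all genes tested, 0.259% passed between resting and proliferative, 2.31% between hypertrophic and proliferative and 3.77% between resting and hypertrophic zone. In the same order, 4.14%, 14.2% and 16.6% of all genes had an unadjusted p under 0.05. The fitted differences of the members from resting to proliferative zone had a median of -0.82 against 0.15 for all genes. They were negative for 17 of 25 members, against 45% of all genes. When P2-D was left out, however, the members' median was 0.24 with 13 of 22 positive. Between resting and hypertrophic zone 20 of 25 were negative, against 39.2% of all genes, with a median of -1.46 against 0.52 for all genes. In the animals with all zones, the within-animal medians of the latter were 0.14 in P2-A, -1.44 in P2-D and -1.85 in P2-G, against 1.03, 0.37 and 0.15 for all genes. Perichondrium markers Col3a1 and Dcn were higher and several prehypertrophic markers lower in the P2 resting zone, and the part of these cells in the members' differences was not tested.

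Sqle at P2 was at 207, 97.7, 115 and 89.9 CPM in the resting sums of P2-A, P2-D, P2-F and P2-G. The proliferative levels were 94.9, 203, 1067 and 397 CPM in P2-A, P2-D, P2-E and P2-G, and the hypertrophic levels 8.89, 12.6, 133 and 144 CPM in P2-A, P2-C, P2-D and P2-G. The resting and the other groups overlapped, and the fitted difference of the resting from the proliferative zone was -0.40 ± 1.03. The sums of P2-C, P2-E and P2-F do not inform such fitted differences, as each of these animals has 1 zone. Msmo1 had resting levels of 11.5, 18.4, 126 and 78.98 CPM against hypertrophic levels of 44.5, 50.2, 141 and 295 CPM, a difference of -2.14 ± 1.14 that did not pass (adjusted p = 0.330). Lbr was at 207, 81.2, 90.8 and 102 CPM in the resting zone and 80.0, 0, 62.5 and 16.5 CPM in the hypertrophic zone. These Lbr groups did not overlap, with the resting zone higher, and the difference of 1.25 ± 1.22 did not pass (adjusted p = 0.695). Srebf1 had resting levels of 25.9, 62.9, 423 and 130 CPM and hypertrophic levels of 0, 0, 10.9 and 119 CPM, which overlapped.

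The other members with the smallest unadjusted p at P2 followed no common order. Here too the levels cover all sums, whereas the fitted differences rest on P2-A, P2-D and P2-G. Mvd had resting levels of 2.88, 0.97, 0 and 22.4 CPM and proliferative levels of 39.5, 26.9, 25.4 and 44.0 CPM, without overlap, and its difference was -3.14 ± 1.77. Ebp stood at 0, 9.67, 0 and 8.67 CPM against 71.2, 13.4, 0 and 34.7 CPM. Acly stood at 25.9, 56.1, 64.1 and 64.3 CPM in the resting and 71.2, 242, 186 and 178 CPM in the proliferative zone, without overlap, a difference of -1.67 ± 1.10. Ggps1 was the reverse, at 48.97, 19.3, 11.7 and 30.2 CPM in the resting and 0, 10.1, 0 and 1.32 CPM in the proliferative zone. None of these 4 passed, each with an adjusted p of 1. Mvk stood at 150 CPM in the hypertrophic sum of P2-G against 44.5, 12.6 and 43.5 in P2-A, P2-C and P2-D, and its resting levels were 8.64 to 28.2 CPM. Srebf2 was at 0, 3.87, 25.7 and 69.2 CPM in the resting and 8.89, 37.7, 27.2 and 329 CPM in the hypertrophic zone, a difference of -2.56 ± 1.45 (adjusted p = 0.376).

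The P3 animal, with 2182195 to 2687484 counts in each zone, was not tested, since it is 1 animal. Its summed level was 1717 CPM in the resting, 1829 in the proliferative and 2123 in the hypertrophic zone. Sqle was at 144, 135 and 209 CPM, Msmo1 at 76.4, 159 and 371, Lbr at 120, 28.1 and 51.2, and Srebf1 at 153, 123 and 84.4. Lbr was thus highest and Msmo1 lowest in the resting zone of the P3 animal.

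Between hypertrophic and proliferative zone at P28 none of the 25 genes passed with edgeR, and 1.12% of all genes passed. Unadjusted p-values were under 0.05 for 2 of the 25, against 12.2% of all genes. Srebf1 had the smallest p, with a log2 fold change of -4.42 ± 1.33 (adjusted p = 0.0694). It passed with DESeq2 (adjusted p = 0.0372) and with each animal label taken as its own animal (adjusted p = 0.0156). Ggps1 had no hypertrophic count against 36 in the proliferative zone, and was at least 5.76-fold lower, with bounds of 3.38-fold without P28-B and 3.40-fold without P28-D. In the xylene-fixed sections its hypertrophic levels were 19.1 and 19.2 CPM, against 35.2 and 12.1 CPM in the proliferative zone of P28-D and P28-E. Sc5d had hypertrophic levels of 224, 191 and 254 CPM and proliferative levels of 90.6, 115 and 2.499 CPM, without overlap, and did not pass (adjusted p = 0.424). Its xylene-fixed levels went the other way, at 140 and 206 CPM in the hypertrophic and 156 and 309 CPM in the proliferative zone. Mvd was at 0, 6.82 and 5.51 CPM in the hypertrophic sums. At P2 the same comparison gave Insig2 2.67 ± 1.75, Npc1 2.75 ± 1.89 and Sc5d 1.47 ± 1.11 on the log2 scale, higher in the hypertrophic zone, and Sqle -1.30 ± 0.96, with adjusted p from 0.540 to 0.626.

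The ages were compared within each zone, with a term for the 2 sets of libraries that differ in how their descriptions are coded. In the resting zone 11 of the 28 genes passed the filter, and Lbr alone passed the test, lower at P28 (adjusted p = 0.0391), and 0.872% of all genes passed. Lbr had 0 counts at P28 against 882 at P2 and was at least 20.4-fold lower at the floor of 3 counts, or 12.3-fold without P28-D. Its xylene-fixed resting levels at P28, 68.1 and 62.6 CPM, were below the lowest P2 resting level, 81.2 CPM, which is from ethanol-fixed sections. Age and fixation cannot be told apart in that comparison. In P28-D itself the resting level of Lbr was 0 CPM in the ethanol-fixed and 68.1 CPM in the xylene-fixed sections. The call was lost when P2-A, P2-D, P2-F, P2-G, P28-A or P28-B was left out, with adjusted p from 0.0634 to 0.133. Sqle, at -4.79 ± 1.495, did not pass (adjusted p = 0.159), and passed with DESeq2. In the proliferative zone none of 24 genes passed, with 0.679% of all genes passing, and in the hypertrophic zone none of 11 passed, with 0.102% of all genes passing. Unadjusted p-values under 0.05 were found for 1 and 0 members there, against 5.62% and 5.25% of all genes, and DESeq2 called none.

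The change of zone differences with age was tested as an interaction. No member passed for resting against proliferative (0.144% of all genes passed), hypertrophic against proliferative (0% passed) or resting against hypertrophic zone (0.273% passed). Unadjusted p-values were under 0.05 for 4, 1 and 5 of the 25 members, against 6.78%, 5.94% and 9.86% of all genes. Lbr had the smallest adjusted p, 0.0875 for resting against hypertrophic zone, and passed there with DESeq2. Sqle followed, with an interaction of -5.26 ± 1.63 (adjusted p = 0.168). For resting against proliferative zone the interaction of Sqle was -4.72 ± 1.64 (adjusted p = 0.496). The lower Sqle in the resting zone at P28 was therefore not shown to differ from P2.

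Other genes of sterol and lipid handling were taken from 4 lists. Of 12 tested fatty acid synthesis targets of SREBP, 1 passed at P28: Scd2, a stearoyl-CoA desaturase, was lower in the resting than in the proliferative zone, at 247, 406 and 166 CPM against 1869, 1306 and 2151 CPM in P28-A, P28-B and P28-D (log2 -2.72 ± 0.69, adjusted p = 0.0236). The xylene-fixed Scd2 levels were 1142 against 1959 CPM in P28-D and 839 against 2650 CPM in P28-E, also lower in the resting zone. The fitted median of that list was -1.69 between resting and proliferative zone at P28 and 0.15 between resting and hypertrophic zone, where the members had -2.25. Of the 9 tested genes of the prenyl, dolichol and ubiquinone branch and of the 11 of SREBP processing and sterol-sensing degradation, none passed in any zone comparison.

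Of the 12 tested genes of sterol transport, ester formation and efflux, Apoe and Abca1 passed. Apoe, the apolipoprotein that carries cholesterol out of cells, was at 676, 508 and 714 CPM in the P28 resting sums against 10.4, 26.5 and 19.99 CPM in the proliferative and 0, 44.3 and 0 CPM in the hypertrophic sums. These differences passed, at log2 5.34 ± 1.28 (adjusted p = 0.0162) and 6.23 ± 1.44 (adjusted p = 0.00294), and the xylene-fixed resting levels of Apoe, 285 and 358 CPM, were above 52.4 and 5.40 in the proliferative zone. At P2, Apoe was at 6.31 to 17.3 CPM in the resting sums and 0 in all others, and it passed against the hypertrophic zone (adjusted p = 0.03795). The P28 resting zone was higher in Apoe than the P2 resting zone by 5.98 ± 0.95 (adjusted p = 0.000298). Abca1, the cholesterol efflux pump, had no count in the P2 proliferative sums and 8.89, 12.6, 35.3 and 109 CPM in the hypertrophic sums, at least 120-fold higher at the floor of 3 counts (adjusted p = 0.0204). Of the 213 hypertrophic Abca1 counts all but 15 were in P2-G, and without that animal the bound was 10.8-fold. At P28 its hypertrophic levels of 31.9, 30.7 and 66.2 CPM were also above the proliferative levels of 5.18, 6.02 and 0 CPM, and did not pass.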

How the data were processed

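Libraries were SMART-seq2 of laser-captured cartilage. The authors deposited raw counts per gene, made with cutadapt, STAR 2.5.2b and featureCounts 1.5.3 on mm10, per the submitters' processing notes. For the annotation and the use of strand, no source used here gives the settings. Repeat columns of 32 libraries were added, libraries under 100000 counts were set aside, and libraries of the same animal and zone were summed. The members and lists were chosen with earlier results of these data known. Zones were compared within age by edgeR 4.0.16 (R 4.3.3; quasi-likelihood test, TMM, filterByExpr, Benjamini-Hochberg threshold 0.05) with the animal as block, from the labels, and 8 residual degrees of freedom. The spread used by the test was moderated across genes, so its p-values did not rest on these 8 degrees of freedom alone. Deviations of sums of the same animal correlated at -0.0036 to 0.1875. Age was compared within zones with 4 residual degrees of freedom. P3 sums entered levels only. Xylene-fixed sums entered levels, the counts of direction at P28 and the alternative fits named below, but no main fit. Each SE was obtained by dividing the fitted difference by the square root of F. Genes were named by a rule: members past the threshold, and the 4 with the smallest p in each zone comparison. Others described were chosen after their values were seen. Pooled ratios carry exact 95% intervals, and folds against 0 counts use a floor of 3 counts over the group; both cover counting error only. Alternatives were RLE scaling, no filter, DESeq2 1.42.0, no block, each label as its own animal, a minimum of 50000 counts without 3 symbols, thinning to 20032 counts, no deposit-set term, leaving out each animal, and added xylene-fixed sums. Leaving out the resting sum of P28-D, with or without xylene-fixed sums, was chosen after seeing the data. The scripts were tested on simulated data.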

Additional observations from a re-analysis of the deposited data

Results flagged for a closer look

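In groups of 4 sums at P2, 45 sets of values, from named members and the summed level, were checked for a sum far from the others, and 8 had one. The nominal rate of such a check, about 1 in 20, holds for independent sets of normally distributed values. These CPM values include values of 0 and the sets share sums, so the 8 cannot be set against that rate. In the resting zone, Lbr in P2-A stood at 207.4 CPM against 81.23 to 101.6 in the others. Mvd in P2-G stood at 22.43 CPM against 0 to 2.88, and Lss in P2-G at 32.42 against 0 to 3.868. In the proliferative zone, Ggps1 in P2-D stood at 10.07 CPM against 0 to 1.323. The other 4 were hypertrophic values of P2-G. There Srebf1 was at 119 CPM against 0 to 10.87, Mvd at 195.5 against 0 to 24.45, Ggps1 at 20.38 against 0 to 2.716, and Srebf2 at 329.4 against 8.893 to 37.66. P2-G had the deepest hypertrophic sum at P2, with 2583378 counts against 252800 to 378929 in the others, and the part of depth in these values was not tested.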

How the results depend on the processing

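Between resting and proliferative zone at P28, where 1 member (Sqle) passed, 0 passed with RLE scaling, without a filter, with the 50000 minimum, after thinning (1 member tested) or without the resting sum of P28-D, and 0 to 1 when each animal was left out. Between resting and hypertrophic zone at P28, where 4 passed, 2 passed with RLE scaling or without a filter, 0 after thinning, 1 without the resting sum of P28-D, and 1 to 4 when each animal was left out. Srebf1 made the count between hypertrophic and proliferative zone at P28 1 with DESeq2 and with each label as its own animal. The interaction of resting against hypertrophic zone had 1 member with DESeq2, and 0 to 1 when each animal was left out. For P28 against P2 in the resting zone, where 1 passed, DESeq2 gave 2, thinning 0 (none tested), and leaving out each animal 0 to 1. Without the replicate block, the paired P28 comparisons gave 0 and 2 members (Lbr and Srebf1 in the second), the interaction of resting against hypertrophic zone 1 (Lbr), and no other count of members changed. Of all genes, RLE split the calls 1 higher to 11 lower against 7 to 11 between resting and proliferative zone at P2, and 14 to 21 against 20 to 12 for age in the proliferative zone. No direction of a named member reversed. The cause of these differences was not tested. The 3 resting sums at P28 held 108601 to 260199 counts, and every member except Cyp51 and Srebf1 had 19 counts or fewer there.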

Other observations

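Nsdhl, a sterol dehydrogenase of the late pathway, stood at 1617 CPM in the proliferative sum of P2-E, against 0, 33.56 and 3.638 CPM in those of P2-A, P2-D and P2-G, and at most 80.96 CPM in any P28 sum. Sqle was also highest in that sum, at 1067 CPM. The sum had 122788 counts in all, 407 of them from the 28 genes. Abca1 in the xylene-fixed sections was at 51.69 and 91.81 CPM in the hypertrophic zone of P28-D and P28-E, against 4.348 and 5.847 CPM in the proliferative zone.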
